A study of Homo sapiens with 12 samples.

Results

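The response of HCT116 cells to hydrogen peroxide (H2O2) was compared, gene by gene, with that of MDA-MB-231 cells. HCT116 is a line from a colon cancer and MDA-MB-231 a line from a breast cancer. RNA was sequenced from each line under control IgG and under IgG with 100 µM H2O2 for 8 h, with 2 libraries in each of these 4 groups, so 8 of the 12 libraries of the study enter the comparison. Every group carried an antibody: the controls carried IgG, and a further group of each line had the anti-Hsp60N antibody with H2O2. No group was without an antibody. HCT116 was grown in McCoy's medium and MDA-MB-231 in DMEM, so line and medium cannot be told apart. Each line stands for 1 tumour of its tissue.

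For each gene, the H2O2 change of a line is the mean log2(TPM + 1) under H2O2 minus that under IgG. TPM is a gene's share of a library, scaled to gene length. The difference between lines is the HCT116 change minus the MDA-MB-231 change. A positive difference means a change further upwards in HCT116, and a negative one a change further downwards. Genes silent in 1 line were set aside: of 23686 genes in the table, 9135 reached 5 TPM in both libraries of at least 1 of the 2 groups in each line. Another 1222 genes reached that level in HCT116 alone and 979 in MDA-MB-231 alone. Among the 9135 genes, 328 qualified through only 1 group of a line, where a change is likelier to be found, and 88 of these were called. Among genes named here, IL8 qualified in HCT116 through H2O2 alone, ATF3 and CYP26B1 in MDA-MB-231 through H2O2 alone, and ARTN and BBC3 in MDA-MB-231 through IgG alone. A change or difference was called, and is written as rose or fell, at a limma adjusted p under 0.05. The labels do not say whether both libraries of a group were grown apart, so each p-value measures how far these samples spread, and that spread may be technical.

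H2O2 oxidises cysteines and damages DNA, and cells answer through several regulators. NRF2, released from its inhibitor KEAP1 by oxidants, drives glutathione and thioredoxin enzymes. The integrated stress response slows translation through eIF2alpha while the transcription factor ATF4 is made, and ATF4 drives amino acid supply and the gene of CHOP. p53 drives cell cycle arrest and cell death genes after DNA damage, and HSF1 drives the Hsp70 and Hsp90 chaperones when proteins unfold. E2F factors drive the genes of DNA replication at the entry to S phase.

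The lines changed by unequal amounts and in partly different genes. The difference was positive and called for 754 of 9135 genes (8.25%) and negative for 1190 (13.0%), together 1944 genes (21.3%). Over all 13956 genes kept in the fit, 7.65% were positive and 9.72% negative. The split between directions depended on scaling: after median-of-ratios scaling it was 947 positive and 897 negative, and after quantile normalization 933 and 911. In HCT116 1535 genes (16.8%) rose and 2093 (22.9%) fell with H2O2, while in MDA-MB-231 160 (1.75%) rose and 154 (1.69%) fell. P-values were adjusted separately for each line, so a call needed a smaller unadjusted p in MDA-MB-231 than in HCT116. MANEAL in HCT116 had an unadjusted limma p of 0.0032 and an adjusted p of 0.015. POLE2 in MDA-MB-231 had 0.0042 and 0.091. Counts of calls in the 2 lines are therefore not at the same unadjusted threshold. The shares of all 9135 genes given so far are the background for the list counts below. The lists share members, so their counts are not separate evidence. Among others, ASNS is on the ATF4 and the serine lists, and ATF3 on the ATF4 and the immediate early lists. SLC7A11 is on the transporter and the NRF2 lists. Of the positive genes, 668 rose in HCT116 with no call in MDA-MB-231, and 27 rose in both lines. Of the negative genes, 940 fell in HCT116 with no call in MDA-MB-231, and 59 rose in MDA-MB-231 with no call in HCT116. A further 152 negative and 25 positive genes had a called difference but no called change in either line. In 41 genes (0.449%) the lines moved in opposite directions, and 172 genes (1.88%) were called in the same direction in both lines. Large differences lay almost all on 1 side: 76 called genes had a positive difference of at least 1 on the log2 scale, and 4 a negative one of that size.

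**Figure D1:**
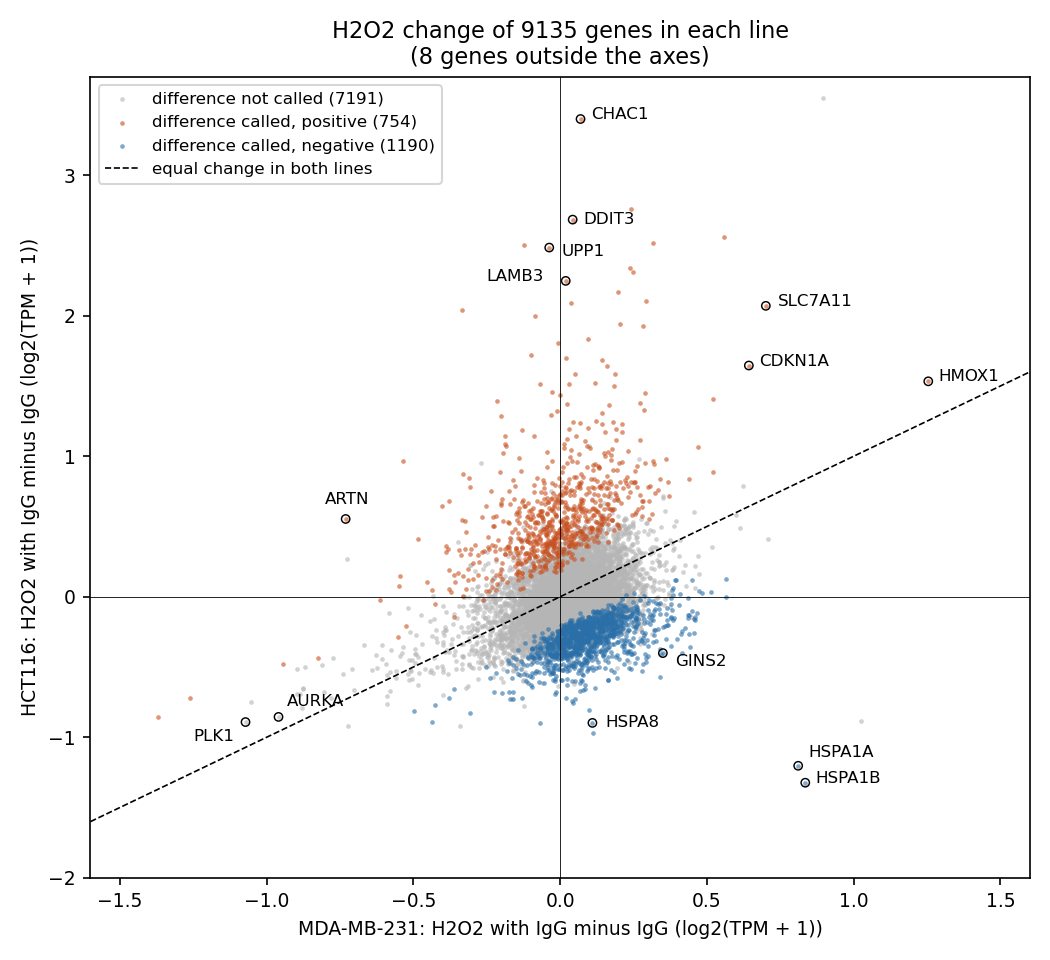
H2O2 change (log2(TPM + 1)) of 9135 genes in MDA-MB-231 (x axis) and HCT116 (y axis), 1 point per gene, with orange and blue for called positive and negative differences and grey for genes with no called difference. The cloud is taller than it is wide, CHAC1, DDIT3, LAMB3 and UPP1 lie high above an MDA-MB-231 change near 0, HSPA1A and HSPA1B lie at the lower right, and 8 genes fall outside the axes.

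The changes spread more widely in HCT116, with an SD over genes of 0.314 against 0.164 in MDA-MB-231 on the log2 scale. Across the 9135 genes the 2 changes correlated at r = 0.239 (Spearman's rho 0.218). This is a description across genes of the same libraries, which are not independent replicates, and the lines share no library. The median difference was -0.08, with a median change of -0.04 in HCT116 and 0.04 in MDA-MB-231. The sign of the difference was the same in every pairing of the 2 libraries of each group for 50.7% of all genes measured. With 2 libraries in a group, values that do not overlap are therefore weak support for a change. The share of all genes without overlap in a line is not given here. The counts moved with single libraries. Each of the 12 libraries was left out in turn. Leaving out an anti-Hsp60N library changed no estimate of the comparison, only its error, so those fits are a weaker check. Without H2O2 replicate 1 or 2 of MDA-MB-231 the positive count was 489 or 478 and the negative count 584 or 507. The negative count was also lower without MDA-MB-231 IgG replicate 1 (626) and without HCT116 H2O2 replicate 1 (670) or 2 (733).

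Genes of the ATF4 response differed most. Of 17 members measured, 17 rose in HCT116 and 5 in MDA-MB-231, and the difference was positive and called for 16 and negative for 0, with a median of 1.09 against -0.08 over all genes. ATF4 itself, whose RNA level rose in both lines, stood at 509 and 457 TPM and then 925 and 979 TPM in HCT116, and at 306 and 304 TPM and then 396 and 389.8 TPM in MDA-MB-231 (difference 0.62, SE 0.08). ATF5, a related factor, was the member without a called difference (0.08, 95% interval -0.18 to 0.35). The promoters of 3 members hold the letters TGATGNAA, a form of the C/EBP-ATF response element (CARE) that ATF4 binds with C/EBP partners, and these are shown because CHAC1, ATF3 and ASNS illustrate the response from its strongest member to its biosynthetic arm. Each sequence is the 250 bases before the gene's start, read 5′ to 3′ on the gene's strand from RefSeq GRCh38.p14, with the match on either strand in capitals. The windows are chr15:40953221-40953470, plus strand, chr1:212565157-212565406, plus strand, and chr7:97872409-97872658, minus strand.
CHAC1 promoter: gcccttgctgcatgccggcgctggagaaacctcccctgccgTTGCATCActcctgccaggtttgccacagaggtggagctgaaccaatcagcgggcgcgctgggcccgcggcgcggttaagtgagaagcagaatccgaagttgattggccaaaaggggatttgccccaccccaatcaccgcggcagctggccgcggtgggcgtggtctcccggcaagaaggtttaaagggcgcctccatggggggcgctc
ATF3 promoter: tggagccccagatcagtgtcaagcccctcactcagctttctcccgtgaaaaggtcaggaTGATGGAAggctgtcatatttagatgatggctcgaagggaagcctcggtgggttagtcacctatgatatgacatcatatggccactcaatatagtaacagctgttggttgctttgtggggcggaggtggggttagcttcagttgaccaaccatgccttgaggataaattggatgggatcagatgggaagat
ASNS promoter: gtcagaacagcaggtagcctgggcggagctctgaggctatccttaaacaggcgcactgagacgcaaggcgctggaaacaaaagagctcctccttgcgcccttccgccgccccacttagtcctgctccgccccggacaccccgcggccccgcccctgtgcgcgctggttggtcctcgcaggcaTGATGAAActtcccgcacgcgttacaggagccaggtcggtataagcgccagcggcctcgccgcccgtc
The match begins at position -209 in CHAC1, -191 in ATF3 and -68 in ASNS, counted back from the start. These 3 were 3 of 15 list members with a window (20%), and 3.19% of all 27305 promoters in the RefSeq table and 1.15% of the 7595 windows of measured genes hold the same letters. The windows of DDIT3, TRIB3 and SESN2 held 0 matches. A match is a description of the sequence and not a bound site.

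CHAC1, an enzyme that degrades glutathione, stood at 6.57 and 5.92 TPM under IgG and at 74.3 and 76.5 TPM under H2O2 in HCT116. In MDA-MB-231 it stood at 8.05 and 6.62 TPM under IgG and at 7.31 and 8.14 TPM under H2O2. The treatments were far apart in HCT116 and overlapped in MDA-MB-231, although the lines started at similar levels. The difference was 3.33 (SE 0.14, 95% interval 3.03 to 3.63, limma adjusted p = 2.13e-07), the largest positive value called. DDIT3, which encodes the transcription factor CHOP, went from 25.9 and 29.6 TPM to 185 and 182 TPM in HCT116. In MDA-MB-231 its values were 43.5 and 45.1 TPM under IgG and 48.2 and 43.2 TPM under H2O2, which overlap (difference 2.64, SE 0.13, limma adjusted p = 1.07e-06). The H2O2 level of DDIT3 was thus above that of MDA-MB-231 in HCT116, although its IgG level was below.

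ATF3, a stress-induced transcription factor, rose from 9.89 and 8.93 TPM to 44.5 and 47.1 TPM in HCT116. In MDA-MB-231 it stood at 6.18 and 4.78 TPM and then at 6.34 and 6.43 TPM, a change that was not called (difference 1.97, SE 0.14, limma adjusted p = 1.42e-05). PPP1R15A, the phosphatase subunit that reverses eIF2alpha phosphorylation, differed by 2.10. It was at 50.6 and 45.6 TPM under IgG and 241 and 255 TPM under H2O2 in HCT116, and at 149 and 161 TPM and then 179.8 and 186 TPM in MDA-MB-231, where the change of 0.24 was not called. TRIB3, a pseudokinase that restrains the pathway, rose in both lines, by 2.10 in HCT116 and by 0.29 in MDA-MB-231. Its difference of 1.81 (SE 0.08) shows the same direction with unequal size. DDIT4, an inhibitor of mTORC1, had a difference of 2.38 with a wider error (SE 0.23), since its IgG libraries of HCT116 stood at 141 and 86.9 TPM. Both lay far under the H2O2 libraries at 468 and 451 TPM.

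Amino acid transporters rose in HCT116 as well. Of 9 amino acid transporters measured, 8 rose in HCT116 and 2 in MDA-MB-231, and 8 had a positive called difference, with a median of 0.79. SLC7A11, the cystine carrier that feeds glutathione synthesis, rose in both lines, from 15.9 and 16 TPM to 67.6 and 73.1 TPM in HCT116 and from 7.02 and 8.58 TPM to 13.0 and 13.5 TPM in MDA-MB-231. The 2 lines therefore both raised it, but by different amounts (difference 1.37, SE 0.12, limma adjusted p = 7.15e-05). SLC7A1, a carrier of cationic amino acids, differed by 0.96, and SLC3A2, the heavy chain that SLC7A11 needs at the membrane, by 0.72. Both rose in HCT116, and in MDA-MB-231 their changes of 0.21 and 0.18 were not called.

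Of 10 genes of serine, one-carbon, asparagine and proline synthesis, 5 had a positive and 1 a negative called difference, with a median of 0.31. Without MDA-MB-231 H2O2 replicate 2 the positive count was 3. The negative call, of ALDH18A1, an enzyme of proline synthesis, held in the fits without HCT116 IgG replicate 1, MDA-MB-231 IgG replicate 2 or either MDA-MB-231 antibody library, and was lost without each of the other 8 libraries and under 5 other settings. ASNS, asparagine synthetase, went from 166 and 169 TPM to 368 and 376 TPM in HCT116, against 55.6 and 55.2 TPM and then 58.1 and 57.1 TPM in MDA-MB-231 (difference 1.09, SE 0.06). PSAT1 (difference 0.90) and PHGDH (difference 0.57), of the serine pathway, rose in HCT116 and changed by 0.06 and -0.04 in MDA-MB-231, with no call. Cytosolic tRNA synthetases did not move as a block: of 20, 6 had a positive and 4 a negative called difference (median 0.11). SARS, the enzyme for serine, had a difference of 0.69, while FARSA, a subunit of the enzyme for phenylalanine, had -0.55 and fell in HCT116. AARS, the enzyme for alanine, rose in both lines and differed by 0.34. The negative count of this list was 2 without MDA-MB-231 IgG replicate 1 or H2O2 replicate 1, 1 without MDA-MB-231 H2O2 replicate 2 or HCT116 H2O2 replicate 1, and 2 with quantile normalization or without a variance trend.

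Targets of p53 formed the next block. Of 23 measured, 20 rose in HCT116, and in MDA-MB-231 2 rose and 1 fell. The difference was positive and called for 19 and negative for 0, with a median of 0.81. CDKN1A, the cell cycle inhibitor p21, rose in both lines, from 186 and 195 TPM to 595 and 601 TPM in HCT116 and from 122 and 127 TPM to 191 and 199 TPM in MDA-MB-231. The treatments did not overlap in either line, and the rise was larger in HCT116 (95% interval of the difference 0.86 to 1.14, SE 0.06, limma adjusted p = 4.96e-06). SESN2, a sestrin on both the p53 and the ATF4 list, differed by 2.52. TNFRSF10B, a death receptor for TRAIL, went from 68.1 and 72.4 TPM to 210.2 and 216 TPM in HCT116, and from 86.0 and 88.8 TPM to 101 and 98.6 TPM in MDA-MB-231, where its change was not called (difference 1.40, SE 0.07). GADD45A, a growth arrest gene, differed by 1.48.

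Of 20 apoptosis regulators, 8 had a positive and 1 a negative called difference, with a median of 0.21. Members that promote death and members that prevent it stood among the positive ones. BBC3, the pro-apoptotic protein PUMA, stood at 14.5 and 13.8 TPM under IgG and 43.5 and 41.3 TPM under H2O2 in HCT116, and between 4.63 and 5.54 TPM in all 4 MDA-MB-231 libraries (difference 1.58, SE 0.14). PMAIP1, the pro-apoptotic protein NOXA, differed by 1.19, and BCL2L1, which encodes the protective BCL-XL, by 0.77. BAD, a pro-apoptotic member, was the negative one at -0.51. The positive count was 5 without MDA-MB-231 IgG replicate 1 or HCT116 H2O2 replicate 2, and 4 without MDA-MB-231 IgG replicate 2 or H2O2 replicate 2. The call of BAD was lost without MDA-MB-231 IgG replicate 1, MDA-MB-231 H2O2 replicate 2 or HCT116 H2O2 replicate 2.

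Immediate early genes, which cells switch on within minutes of a signal, differed at 8 h, the only time sampled. Of 18 measured, 17 rose in HCT116 and 1 in MDA-MB-231, and 15 had a positive called difference, with a median of 0.66. DUSP5, a phosphatase that turns off ERK, went from 61.6 and 61.2 TPM to 235 and 243 TPM in HCT116 and from 79.0 and 75.2 TPM to 88.0 and 89.8 TPM in MDA-MB-231. It was the member that rose in both lines (difference 1.74, SE 0.07, limma adjusted p = 1.12e-07). MAFF, a small Maf factor, rose from 8.01 and 7.29 TPM to 25.2 and 29.1 TPM in HCT116 and lay between 48.4 and 49.5 TPM in the 4 libraries of MDA-MB-231 (difference 1.68). Of 13 BTG, KLF and growth-arrest regulators, 6 had a positive called difference and 0 a negative one (median 0.44). BTG1, an antiproliferative gene, differed by 2.08, and KLF5, a factor of epithelial growth, by 1.07.

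Of 10 NF-kappaB targets 6 had a positive and 1 a negative called difference (median 0.40). RELB and NFKB2, the subunits of the noncanonical pathway, differed by 1.17 and 0.70, and the negative member was SOD2, the mitochondrial superoxide dismutase, at -0.39. SOD2 was not called without MDA-MB-231 H2O2 replicate 2 (limma adjusted p = 0.0563), and without HCT116 IgG replicate 1 the list had 2 negative calls. IL8, a neutrophil chemokine, was low in HCT116, at 0.45 and 0.49 TPM under IgG and 6.78 and 8.10 TPM under H2O2. In MDA-MB-231 it was already at 234 and 256 TPM under IgG and stood at 299 and 311 TPM under H2O2, a change of 0.32 that was not called (95% interval of the difference 1.86 to 2.54, SE 0.16). IL8 reached 5 TPM in HCT116 in the H2O2 group alone, so the filter favours its rise there, and its difference was 3.40 with pseudocount 0.1 and 0.87 with pseudocount 5. Of 10 targets of YAP/TEAD and TGF-beta, 6 had a positive called difference (median 0.54).

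Some of the largest differences belonged to genes whose IgG level was low in HCT116 and high in MDA-MB-231. LAMB3, a chain of laminin-332, went from 25.2 and 25.1 TPM to 122 and 124 TPM in HCT116, and MDA-MB-231 stood between 400.3 and 429 TPM in its 4 libraries (difference 2.23, SE 0.07). Even under H2O2, HCT116 stayed far below every MDA-MB-231 library for this gene. UPP1, uridine phosphorylase, went from 16.3 TPM in both IgG libraries to 97.7 and 94.5 TPM in HCT116, above the 73.4 to 81.1 TPM of MDA-MB-231 (difference 2.52). TSC22D3, the glucocorticoid-induced leucine zipper, and SLFN5, a schlafen gene, differed by 2.05 and 2.06. Their IgG levels were also lower in HCT116, but nearer to those of MDA-MB-231. TSC22D3 stood at 7.42 and 6.67 TPM in HCT116 and at 12.6 and 10.8 TPM in MDA-MB-231. SLFN5 stood at 6.13 and 7.01 TPM in HCT116 and at 7.44 and 9.02 TPM in MDA-MB-231.

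**Figure D2:**
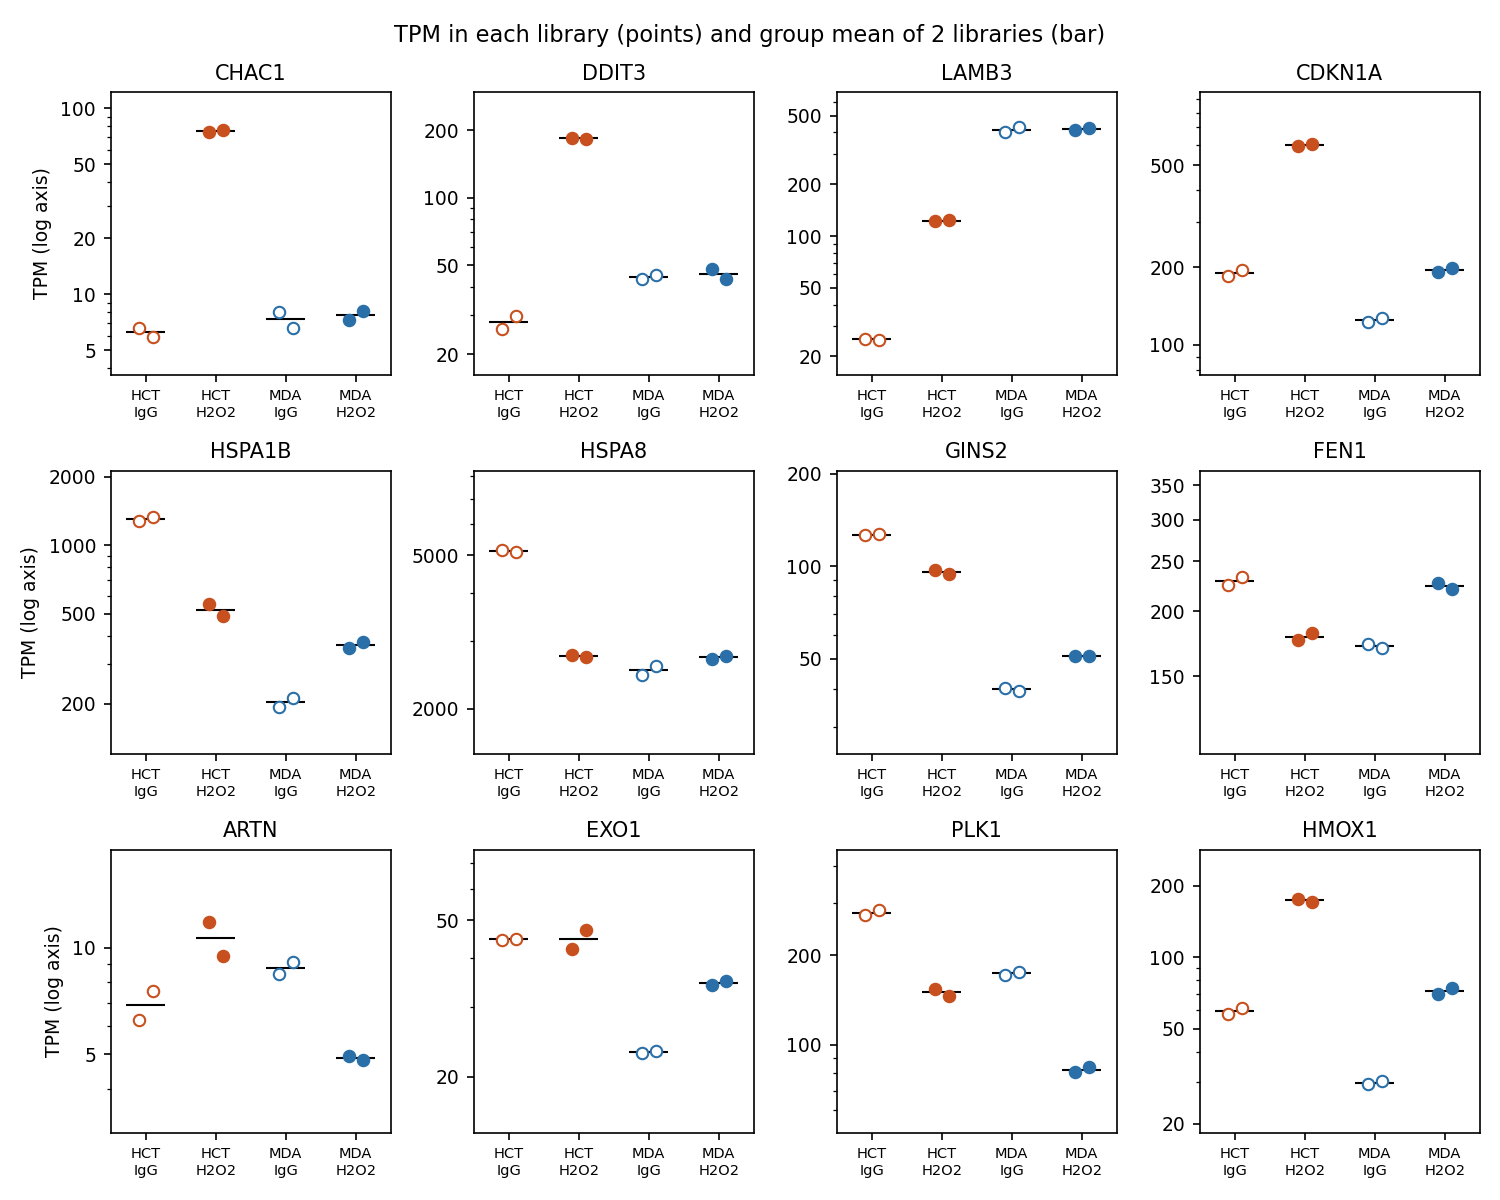
TPM of 12 genes (log axes, with a different range in each panel) in every IgG (open points) and H2O2 (filled points) library of HCT116 (orange) and MDA-MB-231 (blue), with a bar at the mean of 2 libraries. CHAC1 and DDIT3 separate by treatment in HCT116 alone, HSPA1B, GINS2, FEN1 and ARTN go opposite ways in the lines, EXO1 separates in MDA-MB-231 alone, and PLK1 and HMOX1 go the same way in both.

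Chaperones of the cytosol went the other way. Of 19 genes of Hsp70 and its co-chaperones, 15 fell and 1 rose in HCT116, and 2 rose and 0 fell in MDA-MB-231. The difference was negative and called for 14 and positive for 0, with a median of -0.34. The 2 genes that rose in MDA-MB-231, HSPA1A and HSPA1B, encode the stress-inducible Hsp70, and they fell in HCT116. They are near-identical copies, so the split of reads between them is uncertain. Without MDA-MB-231 H2O2 replicate 2 the negative count was 8, and without HCT116 H2O2 replicate 1 it was 9. The direction held in each case, with 0 positive calls.

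HSPA1B went from 1277 and 1326 TPM to 551 and 489.6 TPM in HCT116, and from 193 and 213 TPM to 353 and 373 TPM in MDA-MB-231. The groups of each line did not overlap, and the H2O2 treatment brought the lines closer together from opposite sides (difference -2.16, SE 0.11, 95% interval -2.39 to -1.92, limma adjusted p = 8.41e-07). HSPA1A had the opposite order of the lines. It went from 45.2 and 39.9 TPM to 18.8 and 17.0 TPM in HCT116. In MDA-MB-231 it went from 107 and 116 TPM to 196 TPM in both libraries (difference -2.01, SE 0.12). The level of each copy, and so the order and closeness of the lines, rests on the uncertain split of reads. The 2 copies are not separate evidence of an opposite move. HSPA8, the constitutive Hsp70, was among the most abundant genes of the comparison and fell from 5155 and 5077 TPM to 2760.2 and 2732 TPM in HCT116. In MDA-MB-231 it stood at 2449.9 and 2588 TPM under IgG and at 2694 and 2741 TPM under H2O2, a change that was not called (difference -1.01, SE 0.07). The H2O2 libraries of both lines thus held similar shares of HSPA8. The J-domain partners DNAJB1 and DNAJA1 had differences of -0.75 and -0.74, and HSPH1, a nucleotide exchange factor, had -0.68.

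The HSPA8 promoter is shown because it holds 2 copies of the heat shock element searched for, 3 alternating units of GAA and TTC spaced by 2 bases, to which HSF1 trimers bind. The window is the 250 bases before the start (chr11:123062137-123062386, minus strand, RefSeq GRCh38.p14), with the matches in capitals.
HSPA8 promoter: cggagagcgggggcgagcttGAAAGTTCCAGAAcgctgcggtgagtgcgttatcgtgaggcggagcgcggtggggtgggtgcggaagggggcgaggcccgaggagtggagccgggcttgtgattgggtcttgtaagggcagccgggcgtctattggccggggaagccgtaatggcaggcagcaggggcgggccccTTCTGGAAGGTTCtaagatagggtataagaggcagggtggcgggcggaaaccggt
The matches begin at positions -230 and -55. These letters were found in 2 of 16 members of the Hsp70 list with a window (12.5%), in 0.44% of all promoters of the table and in 0.277% of those of measured genes. The windows of HSPA1A and HSPA1B held 0 matches.

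Of 16 genes of Hsp90, its partners, small heat shock proteins and HSF1, 11 fell in HCT116 and 1 rose in MDA-MB-231, and 10 had a negative called difference and 0 a positive one (median -0.46). All 16 estimates lay below 0. FKBP5, an immunophilin that binds Hsp90, moved in opposite directions, from 64.0 and 64.4 TPM to 54.8 and 53.6 TPM in HCT116 and from 32.4 and 31.7 TPM to 42.8 and 43.4 TPM in MDA-MB-231. The shift is small in each line but the libraries do not overlap (difference -0.66, SE 0.06, limma adjusted p = 0.000124), and both calls held without any 1 of the 12 libraries. STIP1, which links Hsp70 to Hsp90, had a difference of -0.51 and FKBP4, a related immunophilin, one of -0.54, both from falls in HCT116. Of 14 subunits of the TRiC chaperonin and prefoldin, which fold actin and tubulin, 4 had a negative called difference and 0 a positive one (median -0.18), among them TCP1 at -0.42. After quantile normalization 1 prefoldin or TRiC gene was called positive.

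Of 19 mitochondrial chaperones and proteases, 8 had a negative called difference and 0 a positive one (median -0.20). HSPD1, which encodes Hsp60, the protein named in the antibody of the remaining treatment, was at 1965 and 1861 TPM under IgG and 1625 and 1749 TPM under H2O2 in HCT116. In MDA-MB-231 it was at 633 and 666 TPM and then 709 and 687 TPM, a change that was not called. Its difference was -0.28 (SE 0.07, limma adjusted p = 0.0172), and the call was lost with quantile normalization (0.0697), without a variance trend (0.052), and without MDA-MB-231 IgG replicate 1 (0.0629), MDA-MB-231 H2O2 replicate 1 (0.0687) or HCT116 H2O2 replicate 1 (0.0643). TOMM40, the import pore of the outer membrane, had -0.44, and the protease HTRA2 -0.53. The negative count of the list was 5 without any 1 of those 3 libraries, with quantile normalization or without a variance trend. A positive call of 1 member appeared without MDA-MB-231 H2O2 replicate 2, with pseudocount 5, and under both other scalings.

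Genes that the endoplasmic reticulum calls on when proteins misfold went both ways. Of 19 genes, 4 had a positive and 6 a negative called difference (median -0.18). XBP1, a factor of the response, rose from 64.3 and 63.7 TPM to 108 and 119 TPM in HCT116 and stood between 70.3 and 79.2 TPM in the 4 libraries of MDA-MB-231 (difference 0.84, SE 0.10). HSPA5, the Hsp70 of this compartment known as BiP, rose in HCT116 and differed by 0.54, while the folding enzymes and co-factors SDF2L1 (-0.83) and PDIA4 (-0.38) fell there. The positive count was 2 without MDA-MB-231 H2O2 replicate 1.

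DNA replication genes moved apart in the lines. Of 30 measured, 19 rose and 0 fell in MDA-MB-231, and 13 fell and 1 rose in HCT116. The difference was negative and called for 23 and positive for 0, with a median of -0.43, and 9 genes moved in opposite directions. All 30 estimates lay below 0, also after either other scaling and without any 1 of the 12 libraries. Whether fewer cells were in S phase or each cell held less of these RNAs cannot be told apart in bulk RNA. The rises in MDA-MB-231 numbered 8, 9, 12 and 7 without its IgG replicate 1, H2O2 replicate 1, IgG replicate 2 and H2O2 replicate 2. The falls in HCT116 numbered 7 without its H2O2 replicate 1 and 8 without its IgG replicate 2. The opposite calls rested on single libraries too: 2 were left without MDA-MB-231 IgG replicate 1, H2O2 replicate 1 or H2O2 replicate 2, and 4 without HCT116 H2O2 replicate 1. With MDA-MB-231 IgG replicate 2 or HCT116 IgG replicate 2 left out, 6 were called. The fit over the 8 libraries gave 6, and the fit without a variance trend 5.

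GINS2, part of the replicative helicase, went from 126 and 128 TPM to 97.7 and 94.2 TPM in HCT116 and from 40.3 and 39.4 TPM to 51.2 and 51.0 TPM in MDA-MB-231. Each line's groups were apart, in opposite order (difference -0.75, SE 0.07, limma adjusted p = 8.93e-05). FEN1, the flap endonuclease that trims Okazaki fragments, went from 225 and 233 TPM to 176 and 181 TPM in HCT116 and from 173 and 170.4 TPM to 227 and 221 TPM in MDA-MB-231. The treatment thus exchanged the order of the lines for this gene (difference -0.73, SE 0.06), and the opposite calls of FEN1 and GINS2 held without any 1 of the 12 libraries. MCM4, a subunit of the MCM helicase, fell from 183 and 194 TPM to 141 and 145 TPM in HCT116 and rose from 80.1 and 80.7 TPM to 91.8 and 95.6 TPM in MDA-MB-231 (difference -0.61), and it was opposite in 6 of 12 fits with 1 library left out. CDC45, a helicase partner, rose in MDA-MB-231 from 38.1 and 38.6 TPM to 50.8 and 57.6 TPM, and its HCT116 libraries overlapped between treatments (difference -0.46). The difference of CDC45 was not called without MDA-MB-231 H2O2 replicate 2 (limma adjusted p = 0.0611) or HCT116 H2O2 replicate 1 (0.0548). POLE2, a subunit of DNA polymerase epsilon outside the list, had -0.81 and fell in HCT116.

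The promoters of GINS2 and MCM3 are shown as examples of windows that hold an E2F element, searched for as TTTGGCGC or TTTCCCGC on either strand, with the match in capitals. Both genes were called in opposite directions, GINS2 in 12 and MCM3 in 8 of 12 fits with 1 library left out. The windows are the 250 bases before the start in RefSeq GRCh38.p14, chr16:85688955-85689204, minus strand and chr6:52284743-52284992, minus strand.
GINS2 promoter: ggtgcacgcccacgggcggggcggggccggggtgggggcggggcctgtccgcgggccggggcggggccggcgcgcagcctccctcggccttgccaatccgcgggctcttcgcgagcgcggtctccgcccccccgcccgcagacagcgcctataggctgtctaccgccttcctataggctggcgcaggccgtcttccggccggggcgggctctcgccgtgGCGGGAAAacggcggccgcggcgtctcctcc
MCM3 promoter: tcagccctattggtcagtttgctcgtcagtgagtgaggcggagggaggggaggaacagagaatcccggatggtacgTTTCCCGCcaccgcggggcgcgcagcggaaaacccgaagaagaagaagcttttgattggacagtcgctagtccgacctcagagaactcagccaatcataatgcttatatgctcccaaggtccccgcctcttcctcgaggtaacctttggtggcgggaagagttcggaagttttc
The match begins at position -31 in GINS2, on the other strand, and at -174 in MCM3. It was found in 10 of 27 replication genes with a window (37.0%), and in 1 of 25 mitosis genes, against 1.96% of all promoters of the table and 3.48% of those of measured genes. Of the 10 replication genes with the letters, 6 had a called difference and 3 moved in opposite directions (GINS2, MCM3 and MCM7), and of the 17 without them, 16 had a called difference and 5 moved in opposite directions. No motif searched contains another.

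**Figure D3:**
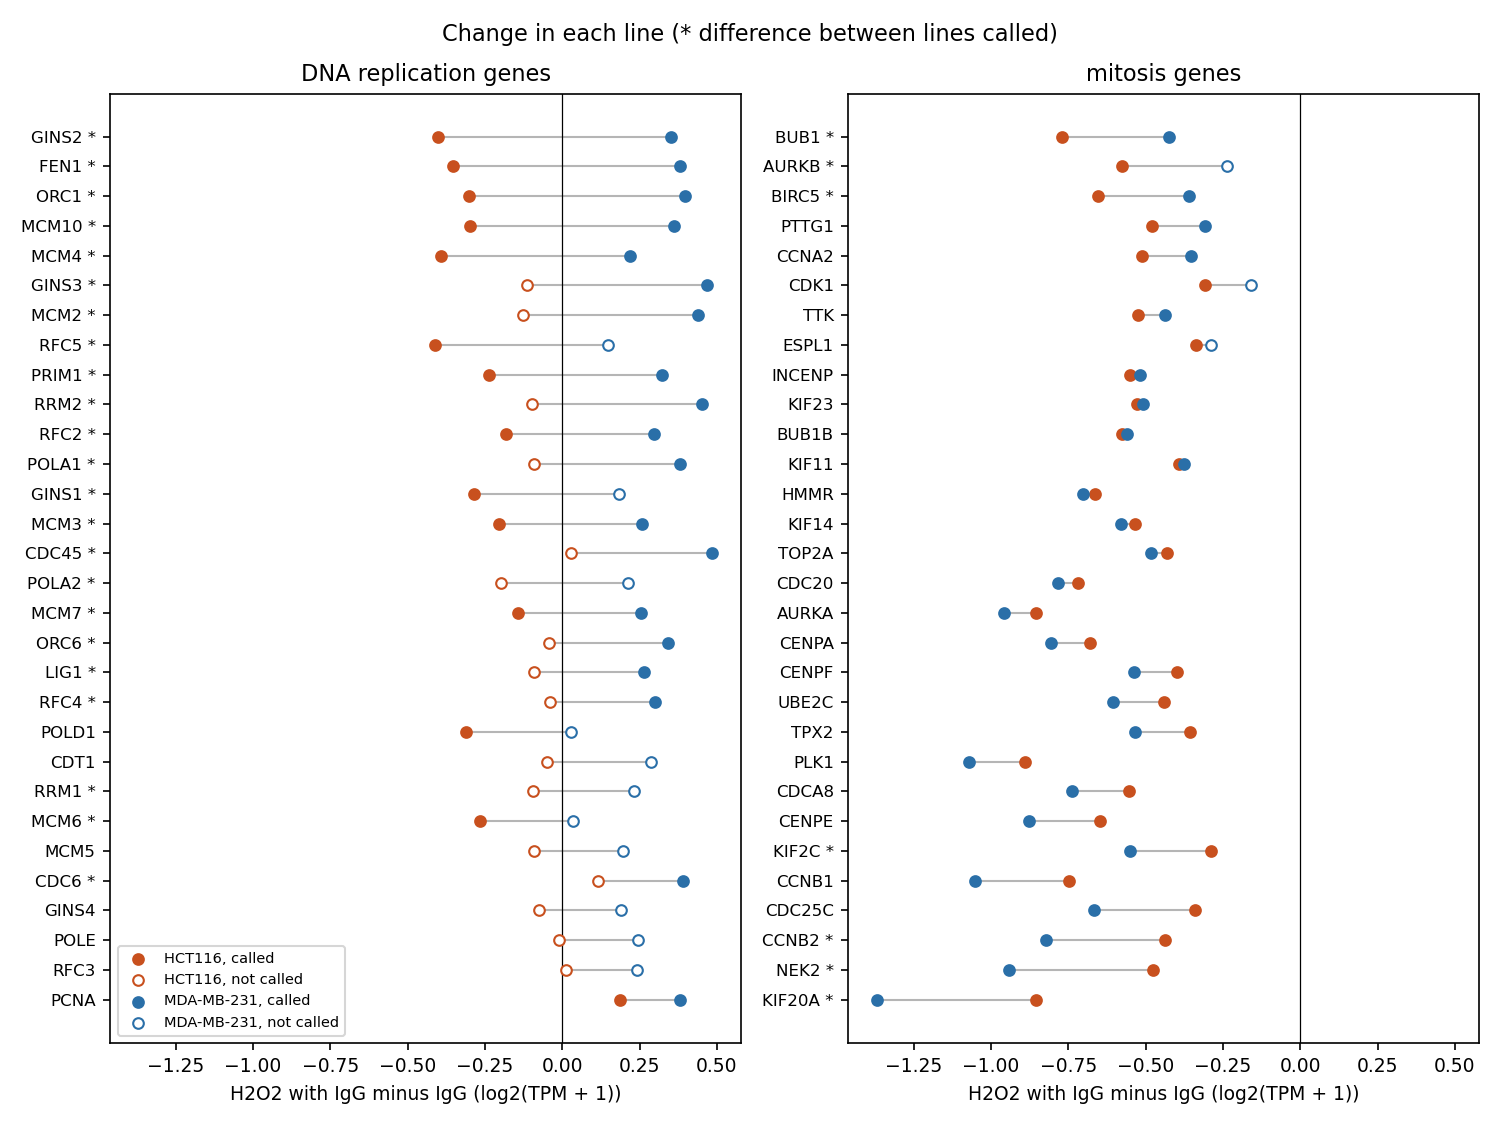
H2O2 change (log2(TPM + 1)) of 30 DNA replication genes and 30 mitosis genes in HCT116 (orange) and MDA-MB-231 (blue), 1 row per gene, with filled points for called changes and a star for a called difference. In the left panel every blue point lies to the right of its orange partner and of 0, and in the right panel all points lie left of 0 with the colours in either order.

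Mitosis genes fell in both lines, 30 of 30 in HCT116 and 27 of 30 in MDA-MB-231, against 22.9% and 1.69% of all genes. Fewer falls were called in MDA-MB-231 without any 1 of its IgG or H2O2 libraries. All 30 estimates lay below 0 in each line. The difference was positive and called for 4 and negative for 3, against 8.25% and 13.0% of all genes, with a median of 0.06. PLK1, a mitotic kinase, fell from 275 and 284 TPM to 155 and 146 TPM in HCT116 and from 172 and 176 TPM to 80.7 and 84.1 TPM in MDA-MB-231. Its difference of 0.18 was not called (95% interval 0.01 to 0.35, limma adjusted p = 0.134). AURKA, another mitotic kinase, had a difference of 0.10 (95% interval -0.10 to 0.30, limma adjusted p = 0.463), and CDC20, which activates the anaphase-promoting complex, one of 0.06 (interval -0.12 to 0.24). NEK2, a centrosome kinase, fell further in MDA-MB-231 (difference 0.47), and BIRC5, which encodes survivin, fell further in HCT116 (difference -0.29). The positive count was 1 without MDA-MB-231 H2O2 replicate 1 or HCT116 H2O2 replicate 2. The negative count was 1 without MDA-MB-231 H2O2 replicate 1 or 2 and with quantile normalization. DLGAP5, a spindle protein, and PSRC1, another, fell in both lines with intervals of the difference from -0.13 to 0.30 and from -0.39 to 0.00.

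Called differences of DNA repair and damage signalling genes were all negative. Of 26, 5 rose and 0 fell in MDA-MB-231, 7 fell and 1 rose in HCT116, and 12 had a negative and 0 a positive called difference (median -0.27). MSH6, of mismatch repair, went from 51.5 and 49.8 TPM to 39.6 and 41.6 TPM in HCT116 and from 47.5 and 52.2 TPM to 61.2 and 60.0 TPM in MDA-MB-231. From similar IgG levels the lines moved apart (difference -0.59, SE 0.08), with opposite calls in 9 of 12 fits with 1 library left out. EXO1, an exonuclease of repair, rose in MDA-MB-231 from 23.0 and 23.2 TPM to 34.2 and 35.1 TPM, while its HCT116 libraries overlapped between 42.2 and 47.2 TPM (difference -0.57). The negative count was 5 without MDA-MB-231 H2O2 replicate 2 and 7 without MDA-MB-231 H2O2 replicate 1 or HCT116 H2O2 replicate 1 or 2. Of 14 G1/S cyclin and E2F genes, 1 had a positive and 3 a negative called difference (median -0.10), against 8.25% and 13.0% of all genes. E2F7, a repressor of E2F genes, rose in HCT116 and differed by 0.77, CDC25A, an activator of cyclin kinases, had -0.41, and CCND3, cyclin D3, -0.46. CCNE2, cyclin E2, rose in both lines, from 26.2 and 27.7 TPM to 39.1 and 42.5 TPM in HCT116 and from 23.4 and 24.8 TPM to 35.9 and 38.2 TPM in MDA-MB-231, with a difference of -0.02 (95% interval -0.27 to 0.24). Of 4 replication-dependent histone genes measured, 0 had a called difference by limma, and 1 had an unadjusted p under 0.05.

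Some NRF2 targets rose in both lines, and some of these rose more in HCT116. Of 23, 14 rose in HCT116 and 8 in MDA-MB-231, and 9 had a positive and 2 a negative called difference (median 0.19). HMOX1, heme oxygenase, went from 57.7 and 61.1 TPM to 176 and 171 TPM in HCT116 and from 29.3 and 30.2 TPM to 70.4 and 74.2 TPM in MDA-MB-231. It rose in both lines: the difference was 0.28 (95% interval 0.09 to 0.47, limma adjusted p = 0.0481), and its call was lost under 14 of 21 alternatives, among them every fit without 1 of the 8 libraries of the comparison, with adjusted p up to 0.153. TXNRD1, thioredoxin reductase, went from 266 and 259.9 TPM to 667 and 732 TPM in HCT116 and from 284 and 317 TPM to 423 and 439 TPM in MDA-MB-231. Its rise was thus larger in HCT116 from similar IgG levels (difference 0.88, SE 0.08). SRXN1, sulfiredoxin, rose in both and differed by 0.43. The positive count of the list was 5 without MDA-MB-231 H2O2 replicate 1, MDA-MB-231 IgG replicate 2 or HCT116 H2O2 replicate 1 or without a variance trend, and 4 without MDA-MB-231 H2O2 replicate 2 or HCT116 H2O2 replicate 2. The negative count was 0 or 1 without MDA-MB-231 IgG replicate 1, H2O2 replicate 1 or H2O2 replicate 2, without HCT116 IgG replicate 2 or H2O2 replicate 1, and under 4 other settings. GSR, glutathione reductase, rose in MDA-MB-231 and was 1 of the 2 negative members (-0.28). An antioxidant response element, searched for as TGAC, any 3 bases and GCA, was found in 1 of 17 members of the list with a window and in 2.65% of all promoters.

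Of 22 antioxidant enzymes, which overlap the NRF2 list, 2 had a positive (TXNRD1 and SRXN1) and 3 a negative called difference (median -0.09). These counts are near the shares over all genes, 8.25% positive and 13.0% negative. The negative count was 0 without MDA-MB-231 H2O2 replicate 2 and 1 without HCT116 IgG replicate 2 or with quantile normalization. Of 6 metallothionein and zinc genes, 3 were positive and 0 negative (median 0.29). SLC30A1, a zinc exporter, had 0.81, MT2A, a metallothionein, 0.41 (0.27 with quantile normalization) and MTF1, the zinc-sensing factor, 0.32, a call lost under 14 of 21 alternatives. Genes other than these that rose alike in both lines were the zinc finger gene ZBTB21 (difference 0.15), UHRF1BP1 (0.11) and CYP26B1, which degrades retinoic acid (95% interval -0.24 to 0.24), all with 95% intervals within 0.5 of 0. CYP26B1 reached 5 TPM in MDA-MB-231 in the H2O2 group alone, so the filter favours its rise there. In all, 31 genes that rose and 98 that fell in both lines had intervals that narrow.

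**Figure D4:**
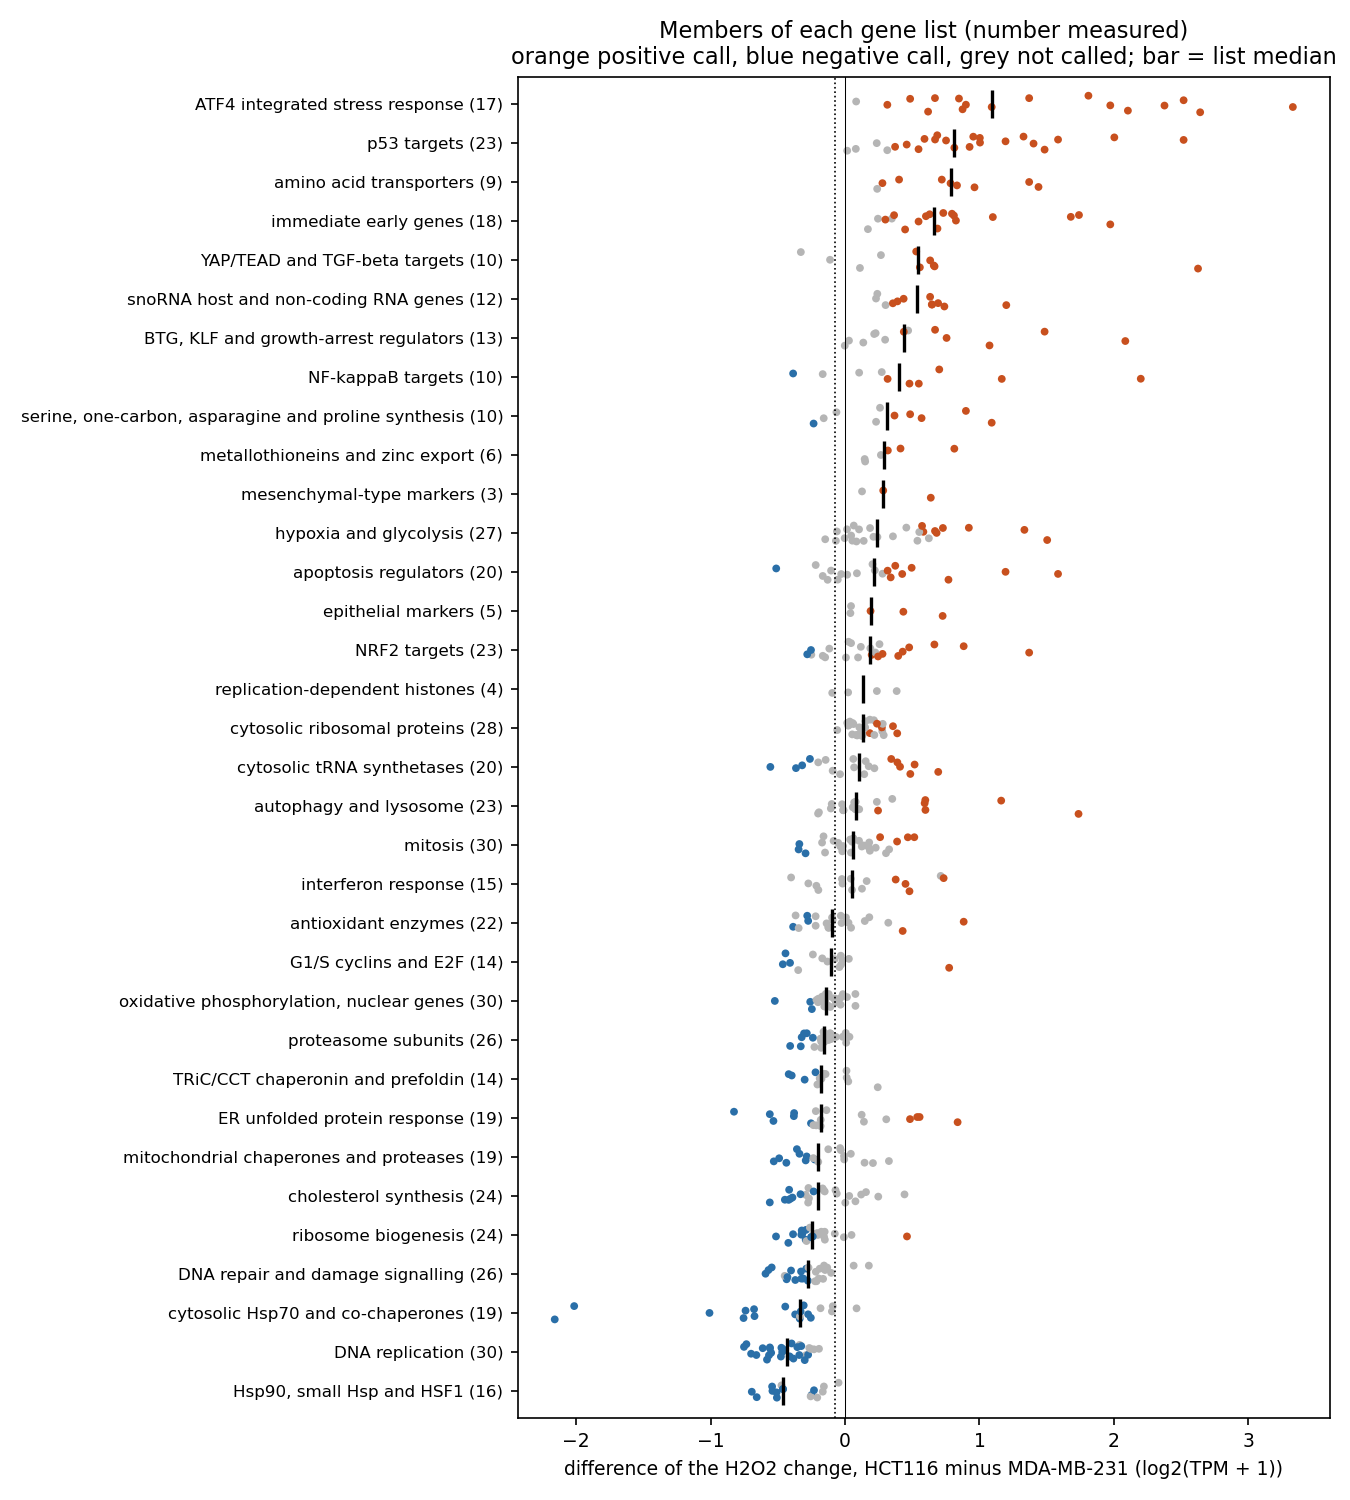
Difference of the H2O2 change (log2(TPM + 1), HCT116 minus MDA-MB-231) of every measured member of 34 gene lists with at least 3 members, 1 point per gene with a small random vertical offset, sorted by list median (black bars); the dotted line is the median of all 9135 genes, -0.08. ATF4, p53 and amino acid transporter genes lie at the top with medians of 1.09, 0.81 and 0.79, and Hsp70, DNA replication and Hsp90 genes at the bottom with -0.34, -0.43 and -0.46.

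Autophagy and hypoxia genes added single members to the positive side. Of 23 autophagy and lysosome genes, 6 had a positive called difference (median 0.08). MAP1LC3B, the LC3 protein of the autophagosome membrane, went from 70.5 and 60.3 TPM to 232 and 238 TPM in HCT116, and in MDA-MB-231 from 91.7 and 96.8 TPM to 103 and 98.2 TPM, a change that was not called (difference 1.74, SE 0.10). OPTN, an autophagy receptor, had 1.16, and GABARAPL1, of the LC3 family, rose in both lines and had 0.60. Of 27 hypoxia and glycolysis genes, 8 had a positive called difference and 0 a negative one (median 0.24), among them NDRG1, a stress-response gene (1.33), VEGFA, the angiogenic factor (0.92), and SLC2A1, the glucose carrier (0.73). That count was 5 without MDA-MB-231 IgG replicate 1, and 4 without any 1 of the remaining 3 MDA-MB-231 libraries, HCT116 IgG replicate 2, or HCT116 H2O2 replicate 1 or 2, and with no filter on low values.

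Non-coding RNA genes, many of them hosts of small nucleolar RNAs, rose in HCT116 in 12 of 12 cases and in MDA-MB-231 in 0, and 9 had a positive called difference (median 0.53). GAS5, a host gene whose RNA is unstable in growing cells, went from 244 and 249.7 TPM to 614 and 558 TPM in HCT116 and overlapped between 287 and 314 TPM in MDA-MB-231 (difference 1.20, SE 0.09). ZFAS1 had 0.65, and EPB41L4A-AS1 0.63; the latter is an antisense gene, and whether reads were counted by strand is not stated, so its reads may be partly those of its neighbour. Of 28 cytosolic ribosomal protein genes, 11 rose in HCT116 and 0 in MDA-MB-231, and 5 had a positive called difference (median 0.13), among them RPL3 at 0.39. That count was 1 without MDA-MB-231 IgG replicate 1, MDA-MB-231 H2O2 replicate 2 or HCT116 H2O2 replicate 1. It was 2 without MDA-MB-231 H2O2 replicate 1 or HCT116 H2O2 replicate 2, with no filter, with quantile normalization and without a variance trend.

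Ribosome biogenesis genes lay on the negative side: of 24, 1 had a positive and 11 a negative called difference (median -0.24). NCL, the nucleolar protein nucleolin, had -0.39, PES1, of large subunit maturation, -0.32, and RRP12 0.46. The negative count was 7 without MDA-MB-231 IgG replicate 1, MDA-MB-231 H2O2 replicate 1 or HCT116 H2O2 replicate 1 and with quantile normalization, and 5 without MDA-MB-231 H2O2 replicate 2. Of 24 cholesterol synthesis genes, 15 fell in HCT116 and 2 in MDA-MB-231, against 22.9% and 1.69% of all genes. In this list 8 had a negative called difference (median -0.20), against 13.0% of all genes. That count was 3 without MDA-MB-231 H2O2 replicate 1, 4 without MDA-MB-231 H2O2 replicate 2 or HCT116 H2O2 replicate 1, and 5 without HCT116 IgG replicate 2 or with the fit over the 8 libraries.

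Proteasome and respiratory chain genes fell in HCT116 in 11 of 26 and 10 of 30 cases, against 22.9% of all genes, and in MDA-MB-231 in 0. Of the 26 proteasome subunits, 6 had a negative called difference and 0 a positive one (median -0.16), with PSMD11 at -0.41. The count was 2 without MDA-MB-231 H2O2 replicate 1 and 3 without MDA-MB-231 H2O2 replicate 2. Of 30 nuclear genes of oxidative phosphorylation, 3 had a negative called difference (median -0.14), against 13.0% of all genes, and the count was 1 without H2O2 replicate 1 of either line, under both other scalings and without a variance trend. NDUFB10, a subunit of complex I, had -0.52. SCO2, which delivers copper to cytochrome oxidase, was not on the list and had the third most negative called difference of all. It went from 25.7 and 21.1 TPM to 11.8 and 11.0 TPM in HCT116 and overlapped between 19.3 and 25.5 TPM in MDA-MB-231 (difference -1.08, SE 0.24). That call was lost without MDA-MB-231 IgG replicate 1 (limma adjusted p = 0.0512). Of 15 interferon response genes, 4 had a positive called difference (median 0.05), among them the factors IRF1 (0.48) and IRF7 (0.73), and the count was 2 without H2O2 replicate 1 or 2 or IgG replicate 2 of MDA-MB-231 and with no filter. The call of IRF7 was lost in each of these fits and without HCT116 IgG or H2O2 replicate 1.

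Of the 41 genes that moved in opposite directions, 32 (0.35%) fell in HCT116 and rose in MDA-MB-231, and 9 rose in HCT116 and fell in MDA-MB-231. ARTN, the neurotrophic factor artemin, headed the second group: it went from 6.24 and 7.57 TPM to 11.8 and 9.46 TPM in HCT116 and from 8.41 and 9.13 TPM to 4.96 and 4.81 TPM in MDA-MB-231. The order of the lines was exchanged by the treatment (difference 1.28, SE 0.17, limma adjusted p = 0.00101). ARTN reached 5 TPM in MDA-MB-231 in the IgG group alone, so the filter favours its fall there, and it was opposite in 7 of 12 fits with 1 library left out. KDM5B, a histone H3 demethylase, went from 12 and 12.5 TPM to 17.6 and 18.9 TPM in HCT116 and from 26 and 28.5 TPM to 22 and 21.1 TPM in MDA-MB-231 (difference 0.86). The adaptor gene SH2D3A (1.06), the linker histone H1F0 (0.72), the kinase substrate MARCKS (0.71), AKIRIN2 (0.68) and AJUBA, an adaptor of the Hippo pathway (0.67), were called likewise. The 12 fits counted here include those without an anti-Hsp60N library, which left every estimate as it was. With 1 library left out, MARCKS was opposite in 1 of 12 fits, SH2D3A, KDM5B and AJUBA in 6, and H1F0 and AKIRIN2 in 8. In the first group, beside chaperone and replication genes, stood CBX2, of Polycomb complexes (-0.81), MANEAL (-0.80) and C16orf55 (-0.75), opposite in 3, 4 and 8 of 12 such fits. The count of 41 was 9 without MDA-MB-231 IgG replicate 1 or H2O2 replicate 1, 22 without IgG replicate 2 and 7 without H2O2 replicate 2 of that line, and 18 or 27 without HCT116 H2O2 replicate 1 or 2. It was 23 with the fit over the 8 libraries and 20 without a variance trend.

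Most differences came from HCT116, but 77 genes with a called difference changed in MDA-MB-231 with no call in HCT116, 59 higher and 18 lower. Besides EXO1 and CDC45, the genes that rose most included CD83, an immunoglobulin-family membrane protein (difference -0.44), and FAM111B, a protease gene (-0.48). The call of CD83 was lost under 9 of 21 alternatives, among them the fits without any 1 of 7 libraries of the comparison, all but HCT116 H2O2 replicate 2, and that of FAM111B without MDA-MB-231 IgG replicate 1 (limma adjusted p = 0.0532), MDA-MB-231 H2O2 replicate 1 (0.0649) or HCT116 H2O2 replicate 1 (0.059). NUDT6, which lies antisense to another gene so that its reads are uncertain, fell in MDA-MB-231 from 21.2 and 20.9 TPM to 14.2 and 12.7 TPM and lay between 7.02 and 7.73 TPM in HCT116 (difference 0.59, SE 0.11). REEP4, which clears membrane from mitotic chromosomes, fell from 62.0 and 67.8 TPM to 46.3 and 42.2 TPM (difference 0.69), and IQGAP3, a scaffold of proliferating cells, from 43.4 and 44.9 TPM to 32.9 and 31.1 TPM (difference 0.55). Each of these stood in HCT116 at values whose change was not called. ERCC5, a repair endonuclease, had 0.63, a call lost without any 1 of 4 libraries: MDA-MB-231 IgG replicate 1 (limma adjusted p = 0.0797) and H2O2 replicate 2 (0.09), and HCT116 H2O2 replicate 1 (0.0786) and IgG replicate 2 (0.0634).

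The libraries with anti-Hsp60N and H2O2 share the IgG controls of each line, so their values are given side by side with those above and not as a second test. In HCT116, CHAC1 stood at 66.2 and 72.9 TPM with the antibody, DDIT3 at 163 and 187 TPM, HSPA1B at 475 and 449 TPM and GINS2 at 91.8 and 92.1 TPM. In MDA-MB-231, CHAC1 stood at 11.1 and 10.0 TPM, DDIT3 at 41.8 and 35.4 TPM, HSPA1B at 401 and 452 TPM and GINS2 at 49.3 and 45.6 TPM. These lie on the same side of the IgG libraries as the H2O2 libraries did for CHAC1 and DDIT3 in HCT116 and for HSPA1B and GINS2 in both lines. Not every gene did so in MDA-MB-231. There SH2D3A stood at 13.7 and 14.8 TPM with the antibody, against 14.49 and 14.54 TPM under IgG. AKIRIN2 stood at 36.2 and 40.7 TPM, against 38.55 and 41.7 TPM, so both overlapped IgG. ARTN, KDM5B, H1F0 and MARCKS lay below their IgG libraries there, as under H2O2.

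Markers matched the labelled lines in part. In HCT116 all 10 epithelial markers were present, and of 5 colon markers CDX2 stood at 13.6 to 17.2 TPM while CDX1 was listed at 0 and VIL1, LGALS4 and CDH17 lay under 1 TPM. In MDA-MB-231 the epithelial markers CDH1, ESRP1, RAB25 and GRHL2 lay under 1 TPM, and ELF3 stood at 0.71 to 1.54 TPM. The other epithelial markers were higher there: KRT8 at 720 to 813 TPM, KRT18 at 581 to 650 and CLDN4 at 105 to 122. CLDN7 stood at 35.3 to 36.6 TPM and EPCAM at 22.6 to 25.3 TPM. Of the mesenchymal-type markers VIM stood at 2233 to 2551 TPM. ZEB1, AXL, TIMP3 and CAV1 were also above 1 TPM, while SPARC lay under 1 TPM and TWIST1 was listed at 0. Of 5 epithelial markers that could be compared, 3 had a positive called difference, led by the tight junction gene CLDN7 (0.73). Of 3 mesenchymal-type markers 2 had one, AXL, a receptor kinase (0.64), and VIM, vimentin (0.28). Of these 3 markers 1 rose in HCT116, and 0 rose or fell in MDA-MB-231. In HCT116 VIM stood at 5.23 and 5.06 TPM under IgG and 5.39 and 5.81 TPM under H2O2, near the filter of 5 TPM. The call of VIM was lost without MDA-MB-231 H2O2 replicate 1 (difference 0.29) or 2 (0.28). It was also lost with quantile normalization (difference 0.25, limma adjusted p = 0.053). The summed TPM of the epithelial markers was 4834 to 4993 under IgG and 4842 to 4923 under H2O2 in HCT116, and 1635 to 1641 and 1472 to 1489.8 in MDA-MB-231. The mesenchymal-type sum was 339.9 to 349 and 344 to 363 in HCT116, and 3492 to 3628 and 3136 to 3162 in MDA-MB-231. The part of these shifts in the other differences was not tested. Of 7 fibroblast or endothelial markers 0 could be compared, and DCN was listed at 0 in both lines. Of 6 immune markers CD68 alone could be compared, and its difference of 0.01 was not called. Over genes, r between the 2 libraries of a group lay between 0.994 and 0.996, and between IgG and H2O2 libraries of a line between 0.985 and 0.995. In each library 12411 to 12653 genes reached 1 TPM; TPM keeps no read total, so depth is unknown.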

How the data were processed

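RNA of 12 libraries was sequenced, 2 for each of 3 treatments in each line. The authors deposited 1 table of TPM values, a gene's length-scaled share of a library, per gene. Per the submitters' processing notes, the tools were RSEM, STAR and bcl2fastq 2.20, with the human build hg19. Which releases of the first pair and which gene models were used is not given in the sources used. TPM keeps no depth, so counting error could not be given, and each value is a share of its library. Genes at 1 TPM or more in at least 2 libraries (13956) were fitted with limma 3.58.1 in R 4.3.3 on log2(TPM + 1), which understates changes of low genes. The fit had 6 group means over 12 libraries, a variance trend and Benjamini-Hochberg adjustment, made separately for each comparison. The difference was read over 9135 genes with at least 5 TPM in both libraries of at least 1 IgG or IgG with H2O2 group of each line. The script was tested on simulated data. Tables and plots used Python 3.11.15, pandas 2.3.3, numpy 2.4.6 and matplotlib 3.10.9.

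The rule for named genes took the 12 largest and 12 smallest called differences, the 6 largest of each order of opposite moves, 5 similar rises and 5 similar falls, 4 changes of each direction called in MDA-MB-231 alone, up to 3 members of each list, and HSPD1. Short RNAs were counted but not named. Not every gene so taken is described, and other list members named were chosen after their values were seen. The comparison, its members and the 37 gene lists were chosen with earlier results of these data known. Promoter windows came from RefSeq GRCh38.p14, matched by symbol for 7595 of 9135 genes; the table's build is hg19, so window coordinates are not of its build. Alternatives covered pseudocount, filters, scaling, the set of libraries, the replicate block, the variance trend and each library left out. Some genes are not reported here.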

Additional observations from a re-analysis of the deposited data

Results flagged for a closer look

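The test of the difference between lines was the report's own comparison, and its calls are repeated here because the H2O2 response differed between the 2 lines: 754 genes had a positive and 1190 a negative called difference by limma, and 41 were called in opposite directions. Among those that fell in HCT116 and rose in MDA-MB-231, the most negative log2 differences were -2.16 for HSPA1B, -2.01 for HSPA1A, -0.81 for CBX2, -0.80 for MANEAL, -0.75 for C16orf55 and -0.75 for GINS2. Among those that rose in HCT116 and fell in MDA-MB-231, they were 1.28 for ARTN, 1.06 for SH2D3A, 0.86 for KDM5B, 0.72 for H1F0, 0.71 for MARCKS and 0.68 for AKIRIN2. The opposite calls of HSPA1A, HSPA1B and GINS2 held in 12 of 12 fits with 1 library left out, those of C16orf55, H1F0 and AKIRIN2 in 8, ARTN in 7, SH2D3A and KDM5B in 6, MANEAL in 4, CBX2 in 3 and MARCKS in 1. The 12 fits include those without an anti-Hsp60N library, which left the estimates as they were and changed only their error. Groups of 2 libraries are too small to test for a library that stands apart.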

How the results depend on the processing

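In the 12 fits with 1 library left out, the positive count ranged from 478 to 730, the negative count from 507 to 1194 and the opposite calls from 7 to 52. Under the 12 other settings they ranged from 426 to 947, from 832 to 1406 and from 20 to 57. The positive count was 426 at 20 TPM or more, where fewer genes were tested, and the opposite calls were 23 with the fit over the 8 libraries and 20 without a variance trend; the cause was not tested for these last 2. Of 126 named genes with a called difference, 105 kept the call under all 21 alternatives run for them, 21 lost it under at least 1, and 0 changed sign. Of 70 list counts, 36 stayed within 1.5 times under every alternative. Counts of 0 calls against a list's direction became 1 under 5 settings for autophagy, 4 for cholesterol, 2 each for interferon and YAP/TEAD, and 1 for oxidative phosphorylation genes. With the replicate block within each line, 662 genes were positive, 990 negative and 29 opposite. Same-numbered libraries deviated together at r = 0.138, 0.375 and 0.159 in MDA-MB-231 and at -0.124, 0.0574 and -0.0514 in HCT116, and the labels do not say that a number marks a shared culture or day. The numbers were therefore not taken as pairs, although all 3 values in MDA-MB-231 were positive.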
